A study of Danio rerio with 9 samples.

Results

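The genes described here encode the V(D)J recombinase and the enzymes that rejoin the DNA ends it makes. They were looked for in expression arrays of sorted leukaemic zebrafish lymphoblasts as rag1, rag2, dclre1c, poll, polm, xrcc4, xrcc5, xrcc6, prkdc and lig4. A probe set, the group of array probes that reports one transcript, was taken when the platform annotation gave it exactly 1 gene symbol and that symbol was one of these 10. This gave 9 probe sets for 8 of the 10 genes, out of 8793 genes named on the array, with 2 probe sets for poll. The ligase gene lig4 and its partner gene xrcc4 had no such probe set and are not analysed here.

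The samples were 6 arrays of the hMYC-ER model (arrays 1 to 6), a transgenic fish carrying a fusion of human MYC with a piece of the oestrogen receptor. Beside them were 3 arrays of the hlk model (arrays 7 to 9), fish with an inherited predisposition to T cell cancer. In both models, GFP+ cells labelled as T-lymphoblasts were sorted from the bodies of fish at the final stage of disease, with 1 array per sample. The labels give no strain, age, sex, GFP reporter promoter, receptor ligand or batch. In the published hMYC-ER line the transgene is driven by the rag2 promoter, which the labels do not state. Whether each array stands for its own fish is not stated, and the p-values below therefore reflect only the variation among these 9 samples, which could be technical. The models are compared as classes, and any batch in step with the model and the model itself cannot be told apart.

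V(D)J recombination assembles antigen receptor genes in developing T and B cells. The RAG1 and RAG2 proteins form one enzyme, in which RAG1 holds the catalytic site and RAG2 is an essential partner, and together they cut DNA beside receptor gene segments and leave hairpin-sealed coding ends. The Ku proteins (xrcc5, xrcc6) bind the ends, DNA-PKcs (prkdc) and Artemis (dclre1c) open the hairpins, the X family polymerases lambda (poll) and mu (polm) fill gaps, and a ligase complex seals the break. The rag genes act mainly in developing lymphocytes, whereas the end-joining enzymes repair breaks in most cell types. In the GRCz12tu gene table, rag1 and rag2 are neighbours with no annotated gene between them.

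Levels are given as log2 normalized signal, after quantile normalization and a floor at a signal of 16, which is 4 on this scale. Each difference is the hMYC-ER mean minus the hlk mean. A probe set was called changed at a limma adjusted p under 0.05, adjusted over all 15502 tested probe sets. Levels of different probe sets are not comparable with each other.

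Some facts of the arrays touch the members. The gapdhs control, which sets the 3' end of one transcript against its 5' end as a sign of RNA integrity, gave a ratio of 50.8 (3' over 5' signal) for hlk array 7. On array 1 the ratio was 4.50, and on the other 7 arrays it lay between 2.20 and 2.77. Of the listed B cell markers, 5 of 10 were measured, and all 5 (pax5, blnk, igl1c1, btk, syk) were called higher in hMYC-ER. Their summed normalized signal was 21419 to 23752 on the hMYC-ER arrays and 139.1 to 207.1 on the hlk arrays, where pax5 and syk were at the floor on 2 of 3 arrays. Of the T cell markers, 3 of 11 were measured, with a summed signal of 1542 to 5903 in hMYC-ER and 6961 to 13824 in hlk. The pan-leukocyte gene ptprc made 90.8% to 97.1% of that sum on the hMYC-ER arrays and 44.4% to 77.4% on the hlk arrays, and trac plus gata3 came to 106.0 to 544.6 in hMYC-ER and 1571.5 to 7690.2 in hlk. The T cell receptor gene trac averaged 7.02 ± 0.95 in hMYC-ER (SD, n = 6), against 11.61 ± 1.31 in hlk (SD, n = 3), and it was called lower in hMYC-ER (-4.59, limma adjusted p 0.00293). The T lineage factor gene gata3 was called lower there too (-4.69, limma adjusted p 0.00170), with 1 of its 6 hMYC-ER values at the floor, while ptprc was not called (-0.79, limma adjusted p 0.203). On the hMYC-ER arrays, labelled as T-lymphoblasts, 2 of the 3 measured T cell markers were thus lower and all measured B cell markers higher than on the hlk arrays. Of 19 measured markers of 7 other cell types, limma called 0, beside 21.1% of all genes. Of these markers 1 had an unadjusted p under 0.05, and no share of all genes was counted at that threshold. Some were at the floor on many arrays or spread widely within hlk, as krt5 and cebpa did (SD 2.49 and 2.63, n = 3). These counts thus do not show that the models are alike in other cells. The part of these markers in the results below was not tested. In sorted bulk cells, fewer cells of a type and less RNA per cell cannot be told apart.

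Where the recombination and end-joining genes changed, they were lower in hMYC-ER. Of the 9 probe sets, 4 were called, all lower in hMYC-ER than in hlk. They belong to polm, dclre1c, poll and xrcc6. Over all tested probe sets 18.9% were called, with 9.15% called higher in hMYC-ER and 9.73% called lower there. Limma called 0 members higher in hMYC-ER, and 0 had an unadjusted p under 0.05 in that direction, against 6 probe sets in the other. The share of all probe sets at that unadjusted threshold is not given here, so these counts have no background to be read against. For the 4 called probe sets the 6 hMYC-ER values all lay below the 3 hlk values, as they did for 10.8% of all probe sets, and the models lay apart in one direction or the other for 20.5%. The median difference of the 9 probe sets was -0.66, beside -0.04 over all probe sets tested.

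**Figure D1:**
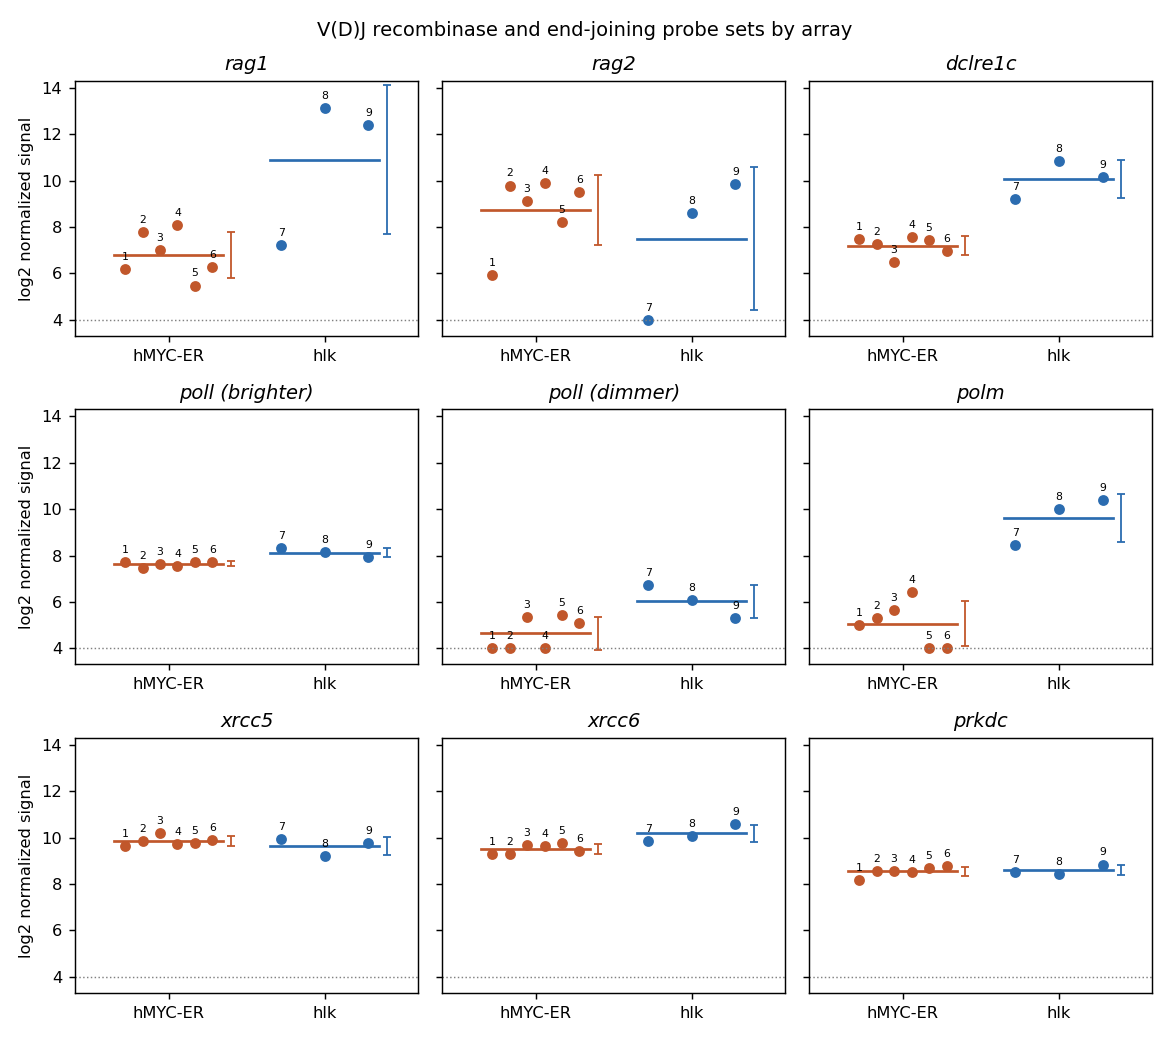
Log2 normalized signal (vertical axis) of the 9 probe sets on the 6 hMYC-ER arrays (orange) and 3 hlk arrays (blue), numbered by array. Horizontal lines are means, bars beside them are SDs and the dotted line is the floor at 4. The hMYC-ER and hlk points are apart for polm, dclre1c, xrcc6 and the brighter poll probe set, and hlk array 7 lies among the hMYC-ER arrays for rag1.

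The recombinase gene rag1 (Entrez Gene 30663) stood at 6.17, 7.78, 7.03, 8.08, 5.48 and 6.27 on hMYC-ER arrays 1 to 6, against 7.22, 13.13 and 12.39 on hlk arrays 7, 8 and 9. All 6 hMYC-ER arrays were far below hlk arrays 8 and 9, and hlk array 7 fell inside the hMYC-ER range. In signal as deposited, rag1 ran from 43.1 to 287.7 in hMYC-ER, against 133, 9170.1 and 5495.4 on the 3 hlk arrays. Averages were 6.80 ± 1.01 in hMYC-ER (SD, n = 6), against 10.91 ± 3.22 in hlk (SD, n = 3). The difference was -4.11 (SE 1.26, limma adjusted p 0.0570), which was not called. Without array 7 the difference was -5.96 (SE 0.72, limma adjusted p 0.00172), with 6.81 ± 1.02 in hMYC-ER (SD, n = 6), against 12.77 ± 0.54 in hlk (SD, n = 2). In that comparison rag1 was 62.3-fold lower in hMYC-ER. The adjusted p also fell to 0.0477 when the fit ran over genes in place of probe sets. Without hlk array 8 or 9 the difference was -3.01 (limma adjusted p 0.181) or -3.37 (limma adjusted p 0.179).

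The partner gene rag2 (Entrez Gene 30658) did not share the lower hMYC-ER mean of rag1 over the 9 arrays, though like rag1 it was low on hlk array 7. It stood at 5.94, 9.79, 9.12, 9.91, 8.23 and 9.51 on hMYC-ER arrays 1 to 6, against 4.00, 8.61 and 9.88 on hlk arrays 7, 8 and 9. On hMYC-ER arrays 2 to 6 rag2 lay near hlk arrays 8 and 9, and it was lowest in each model on arrays 1 and 7. Those are the arrays with the highest gapdhs 3' to 5' ratio, 4.50 and 50.8. The part of RNA integrity in the rag2 values was not tested. The means were 8.75 ± 1.51 in hMYC-ER (SD, n = 6), against 7.50 ± 3.09 in hlk (SD, n = 3), with array 7 at the floor. The difference of 1.25 (SE 1.37, 95% interval -1.89 to 4.40, limma adjusted p 0.591) was not called. It was -0.50 without array 7 and 0.07 without both arrays 1 and 7 (limma adjusted p 0.810 and 0.978), so the sign turned without array 7 alone and no call was gained. The interval covers a wide span in both directions and does not show that the models are alike.

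The models did not overlap in the ratio of rag1 to rag2, though the ratio also ran widely within hMYC-ER, in large part through array 1. The within-array log2 ratio of rag1 to rag2 was 0.23, -2.01, -2.09, -1.83, -2.75 and -3.24 on hMYC-ER arrays 1 to 6, against 3.22, 4.52 and 2.52 on hlk arrays 7, 8 and 9. Only differences in this ratio between arrays have a meaning, because the 2 probe sets have their own scales, and the value of array 7 is a lower bound since rag2 was at the floor there. All 6 hMYC-ER values lay below all 3 hlk values, those of arrays 1 and 7 included. These 2 arrays had the highest gapdhs 3' to 5' ratios (4.50 and 50.8). The part of RNA integrity in the rag1 to rag2 ratio was not tested. Of all single probe sets, 20.5% kept the models apart in one direction or the other, and no such share was counted for ratios. The means were -1.95 ± 1.19 in hMYC-ER (SD, n = 6), against 3.42 ± 1.02 in hlk (SD, n = 3). The difference was -5.37 (two-sided exact permutation test over the 84 splits of the arrays, p = 0.0238, the smallest this design can give). It was -5.46 without array 7 and -5.89 without arrays 1 and 7, where the smallest p the exact test can give is 0.0714 and 0.0952, so that the threshold cannot be passed.

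**Figure D2:**
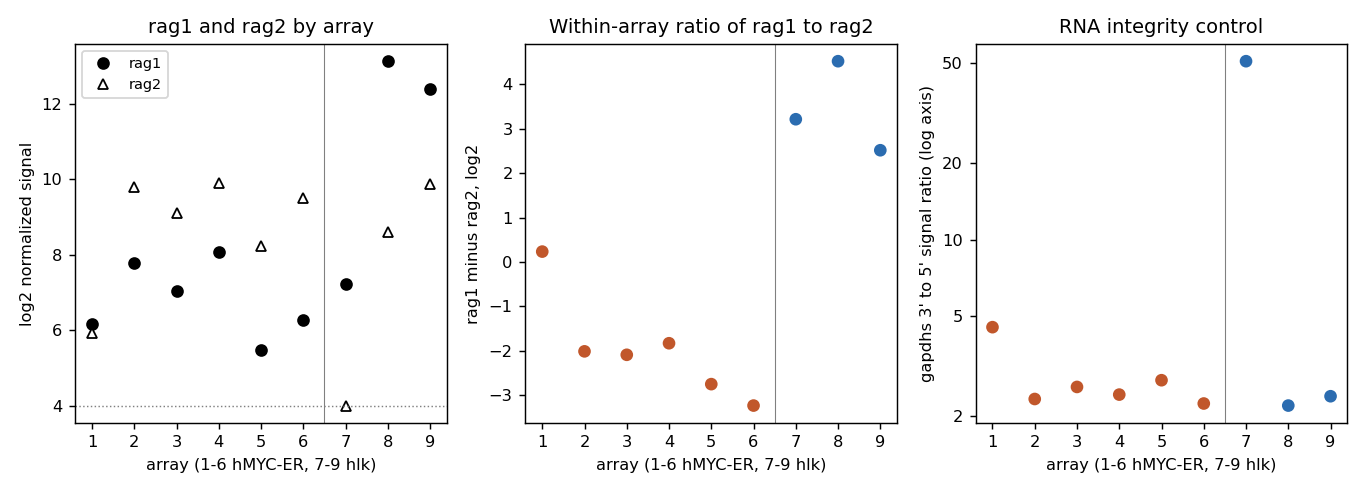
Left, log2 normalized signal of rag1 (filled circles) and rag2 (open triangles) on hMYC-ER arrays 1 to 6 and hlk arrays 7 to 9, with the floor dotted; heights of the 2 probe sets are not comparable. Middle, the within-array log2 ratio of rag1 to rag2, at most 0.23 in hMYC-ER (orange) and at least 2.52 in hlk (blue). Right, the gapdhs 3' to 5' signal ratio on a log axis, 50.8 on array 7 and 4.50 on array 1.

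Among the hairpin-opening factors, the Artemis nuclease gene dclre1c was lower in hMYC-ER and the kinase gene prkdc was not called. The level of dclre1c (Entrez Gene 566285) was 7.49, 7.25, 6.49, 7.58, 7.44 and 6.96 on hMYC-ER arrays 1 to 6, against 9.22, 10.85 and 10.17 on hlk arrays 7, 8 and 9. The highest hMYC-ER array was 1.64 below the lowest hlk array, array 7. The means were 7.20 ± 0.41 in hMYC-ER (SD, n = 6), against 10.08 ± 0.82 in hlk (SD, n = 3). The difference was -2.88 (SE 0.37, limma adjusted p 0.00128), which is 7.34-fold lower in hMYC-ER. Without array 7 it was -3.29 (limma adjusted p 7.7e-04).

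The gene prkdc (Entrez Gene 562283), for the DNA-dependent protein kinase that activates Artemis, ran from 8.17 to 8.79 in hMYC-ER (median 8.57) and stood at 8.51, 8.43 and 8.84 on hlk arrays 7, 8 and 9. Every hlk value was within or next to the hMYC-ER range. The difference was -0.05 (SE 0.15, limma adjusted p 0.878), and its 95% interval of -0.40 to 0.30 leaves out changes of the size seen for dclre1c.

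The polymerase mu gene polm showed the largest difference among the called members. Polymerase mu adds nucleotides at ends with little or no pairing. The level of polm (Entrez Gene 393218) was 5.00, 5.31, 5.64, 6.44, 4.00 and 4.00 on hMYC-ER arrays 1 to 6, against 8.46, 10.01 and 10.39 on hlk arrays 7, 8 and 9. hMYC-ER arrays 5 and 6 were at the floor, and no hMYC-ER array came within 2.02 of an hlk array. The means were 5.07 ± 0.95 in hMYC-ER (SD, n = 6), against 9.62 ± 1.02 in hlk (SD, n = 3). The difference was -4.55 (SE 0.64, limma adjusted p 0.00200). That is 23.4-fold lower in hMYC-ER, an understatement since the floor lifts 2 arrays. Without array 7 the difference was -5.14 (limma adjusted p 0.00226).

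The polymerase lambda gene poll (Entrez Gene 406697), whose product fills short gaps at paired ends, was lower in hMYC-ER by a small margin. Its brighter probe set stood at 7.73, 7.47, 7.62, 7.57, 7.73 and 7.72 on hMYC-ER arrays 1 to 6, against 8.31, 8.16 and 7.92 on hlk arrays 7, 8 and 9. The values are tight in both models and do not overlap. The means were 7.64 ± 0.11 in hMYC-ER (SD, n = 6), against 8.13 ± 0.19 in hlk (SD, n = 3). The difference was -0.49 (SE 0.11, limma adjusted p 0.0169), or 1.40-fold lower in hMYC-ER. The call was kept without array 7 (-0.40, limma adjusted p 0.0420) and ended with a floor of 1 or with an intensity trend and robust prior (limma adjusted p 0.0946 and 0.0910). The dimmer probe set ran from 4.00 to 5.42 in hMYC-ER, with 3 arrays at the floor, and stood at 6.72, 6.06 and 5.31 on hlk arrays 7, 8 and 9. hlk array 9 was inside the hMYC-ER range, and the difference of -1.39 (SE 0.47, limma adjusted p 0.0784) was not called.

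The Ku genes encode the ring that first binds broken ends. The gene xrcc6, for Ku70 (Entrez Gene 334488), stood at 9.30, 9.29, 9.69, 9.64, 9.77 and 9.43 on hMYC-ER arrays 1 to 6, against 9.86, 10.08 and 10.61 on hlk arrays 7, 8 and 9. The models did not overlap, but no more than 0.09 separated hMYC-ER array 5 from hlk array 7. The means were 9.52 ± 0.21 in hMYC-ER (SD, n = 6), against 10.18 ± 0.38 in hlk (SD, n = 3). The difference was -0.66 (SE 0.19, limma adjusted p 0.0429), or 1.58-fold lower in hMYC-ER. This call rested on single arrays. It ended without any 1 of 7 arrays (1, 2, 3, 4, 6, 8 and 9), where the limma adjusted p ran up to 0.119 with a difference of -0.45 without array 9, and it held without array 5 (-0.71, limma adjusted p 0.0475) or 7 (-0.82, limma adjusted p 0.0247).

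The gene xrcc5, for Ku80 (Entrez Gene 449848), ran from 9.62 to 10.22 in hMYC-ER (median 9.80) and stood at 9.94, 9.19 and 9.79 on hlk arrays 7, 8 and 9. Only hlk array 8 lay outside the hMYC-ER range. Its difference of 0.21 (SE 0.19, 95% interval -0.23 to 0.65, limma adjusted p 0.517) was not called. Whether the Ku genes differ from each other in their change was not tested.

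**Figure D3:**
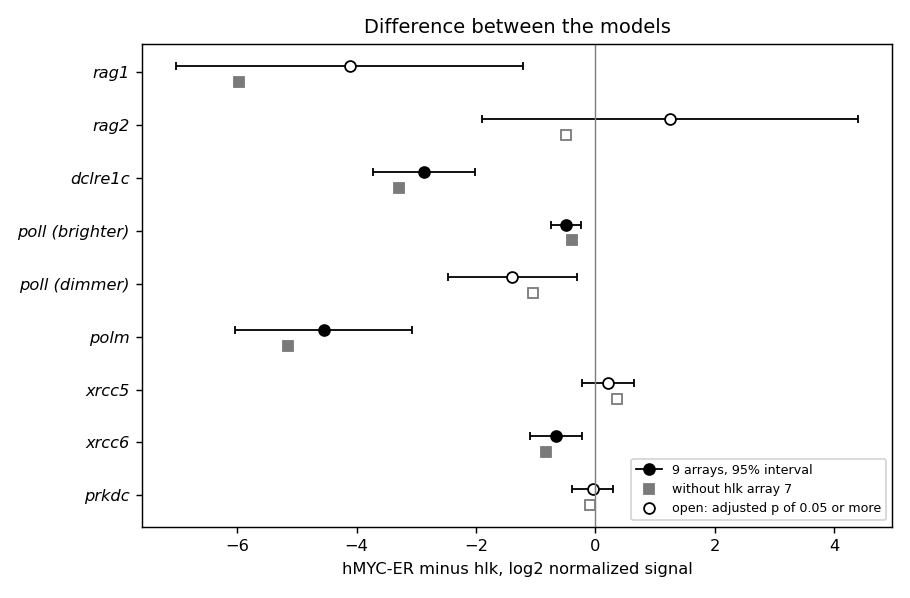
Difference between the models, hMYC-ER minus hlk, in log2 normalized signal for each probe set. Circles with 95% intervals use all 9 arrays and squares leave out hlk array 7; filled symbols have a limma adjusted p under 0.05. Without array 7, rag1 moves to -5.96 and becomes filled, and rag2 crosses 0 to -0.50.

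Within each model some members varied widely and others were steady. Across the 6 hMYC-ER arrays rag2 spanned 15.7-fold, with an SD of 1.51 that only 0.44% of all probe sets reached. Much of this rag2 spread rested on array 1 (5.94), since arrays 2 to 6 ran from 8.23 to 9.91. The span was 6.07-fold for rag1 (SD 1.01, reached by 2.81% of probe sets) and 5.43-fold for polm (SD 0.95, reached by 3.71%). The polm values were at the floor on arrays 5 and 6. The median SD over all probe sets was 0.36 in hMYC-ER and 0.45 in hlk. By contrast xrcc5, xrcc6, prkdc and the brighter poll probe set spanned 1.20-fold to 1.53-fold in hMYC-ER, with SDs that 76.3% to 91.4% of probe sets reached. The dimmer poll probe set (2.67-fold) and dclre1c (2.14-fold) lay between. The rag genes and polm thus had the widest spread in hMYC-ER. Of the hMYC-ER arrays, 2 and 4 were the highest 2 for both rag1 and rag2, and array 4 was highest for polm and dclre1c too. Array 5 was lowest for rag1, while array 1 was lowest for rag2 and array 3 for dclre1c.

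Within hlk, array 7 stood far below arrays 8 and 9 for rag1 and rag2, and much less so for polm and dclre1c. Array 7 minus the mean of arrays 8 and 9 was -5.55 for rag1 and -5.24 for rag2, and 0.077% and 0.12% of all probe sets were as low. The same gap was -1.74 for polm and -1.29 for dclre1c, where 4.99% and 8.52% of probe sets were as low. The median gap over all probe sets was 0.00. For xrcc5, prkdc and both poll probe sets the gap was between -0.12 and 1.03, and for xrcc6 it was -0.49. With the gapdhs 3' to 5' ratio of 50.8 on this array, the part of RNA integrity in these gaps was not tested. The summed T cell marker signal of array 7 was 13353, within the range of the hlk arrays. For 5 of the 7 other cell types, array 7 had the highest marker sum of the 3 hlk arrays. Among these, the summed signal for muscle and skin was 861.2 on array 7, 228.0 on the lowest hlk array and 230.3 to 389.1 in hMYC-ER. For erythroid cells it was 832.2 on array 7, 175.0 on the lowest hlk array and 490.0 to 715.4 in hMYC-ER. For thrombocytes array 7 had 65.5, close to the top of the hMYC-ER range of 21.6 to 61.5. The erythroid genes did not move together. On array 7 hbaa1 was the highest of the hlk arrays (9.56), alas2 the lowest (5.56), and slc4a1a and gata1a were at the floor. The myeloid marker sum was lowest in hlk on array 7 (1270.5), but the myeloid genes did not move together either. On array 7 cebpb was the lowest of the hlk arrays (9.98), and cebpa and mpx were at the floor. There lyz (6.58) and csf1ra (5.99) were the highest of the hlk arrays, and marco (6.26) lay between the others. The 1 measured endothelial marker, kdrl, was at the floor on all 3 hlk arrays, so these have no order for it. The epithelial keratin gene krt5, the 1 measured thymic stroma marker, stood at 9.22 on array 7 and at 4.77 and 5.05 on arrays 8 and 9. The part of other cells in the gaps of array 7 was not tested.

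The similarity of profiles was measured as the root-mean-square distance, in log2 units, between profiles centred on their mean over the 9 arrays. Among rag1, rag2, dclre1c and polm, the nearest pairs were dclre1c with polm (1.13) and rag1 with polm (1.15), and rag1 with dclre1c stood at 1.53. The distance of rag1 from its neighbour gene rag2 was 2.72, above the median distance of rag1 from the 8164 genes compared, 2.60. Those genes leave out the members and symbols that are clone or model names. Distances of rag2 from dclre1c and polm were 2.59 and 3.12. By this distance the rag1 profile was nearer to polm and dclre1c than to rag2, but this was not particular to them. It was also nearer to xrcc6 (2.29), the poll probe sets (2.47 and 2.49) and prkdc (2.56), and its distance from xrcc5 was 2.73. The distance counts the size of changes as well as their shape. A steady gene can therefore be nearer to rag1 than a gene that rises and falls with it. The distances from steady genes, and the median distance, thus do not rank likeness of shape.

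The 5 named genes nearest to each wide-ranging member were also found. For rag1 they were the MHC class II alpha chain gene mhc2daa (0.69), the growth factor gene pdgfab (0.82), the cathepsin gene ctsba (1.03), lsr (1.13) and rapgef2b (1.23). All 5 were high on hlk arrays 8 and 9 and low on the hMYC-ER arrays, and pdgfab was at the floor on all 6 of those. For rag2 they were the actin-capping gene capzb (0.68), the nuclear pore gene nup210 (0.69), the small GTPase gene rhoab (0.71), the dynein subunit gene dync1li1 (0.80) and the nuclear import gene tnpo2a (0.83). Each of these 5 was lowest over all arrays on array 7, and array 1 was lowest in hMYC-ER for all but tnpo2a, which was lowest on array 5. All these genes were chosen for their likeness to rag1 or rag2, so their high and low values follow from the choice.

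For polm the nearest were tenm3 (0.73), the integrin gene itgae.2 (0.78), the sodium pump gene atp1b2a (0.80), the gene myca of the zebrafish MYC family (0.81) and the transcription factor gene ets1 (0.85). All 5 were called lower in hMYC-ER, with myca at 8.80 ± 0.28 in hMYC-ER (SD, n = 6), against 13.09 ± 0.27 in hlk (SD, n = 3). For dclre1c they were lrrc4ca (0.40), sh3bgrl (0.44), the adaptor gene gab1 (0.45), scg3 (0.45) and the kinase gene tlk1b (0.47), also all called lower in hMYC-ER. For the dimmer poll probe set they were oxct1a (0.26), sult6b1 (0.40), neff1 (0.41), fstl5 (0.41) and lrrn1 (0.45), against a median distance of 0.98. The genes nearest to polm and dclre1c were chosen for likeness to members lower in hMYC-ER. Their lower levels there follow from that choice. These distances rest on 9 arrays of 2 models and describe likeness only.

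Other genes of end joining and of the RAG complex were taken from a list that leaves out the members. Of 18 listed genes 9 were measured by their brightest probe set, and the template-free polymerase gene dntt was not among them. In this list 1 gene was called higher in hMYC-ER, 3 were called lower there and 5 were not called. Over all 8793 genes 21.1% were called, with 887 genes (10.1%) higher in hMYC-ER and 969 lower there. The median difference was -0.35, beside -0.08 over all genes. The genes hmgb1a and hmgb1b, for DNA-bending proteins that help RAG bind its sites, were lower in hMYC-ER by small margins. For hmgb1a the levels were 12.20 ± 0.20 in hMYC-ER (SD, n = 6), against 12.82 ± 0.27 in hlk (SD, n = 3) (-0.62, limma adjusted p 0.0285), and for hmgb1b the difference was -0.76 (limma adjusted p 0.0197). The listed genes hmgb2a (0.18, limma adjusted p 0.825) and hmgb2b (-0.35, limma adjusted p 0.513, with a second probe set at 0.59) were not called. Neither was the end-joining gene nhej1 (-0.14, limma adjusted p 0.674). The end-cleaning phosphodiesterase gene tdp2b was lower in hMYC-ER (-0.81, limma adjusted p 0.0144), with a second probe set at 0.07. The ADP-ribosyltransferase gene parp3, whose product promotes end joining in human cells, went the other way, at 9.49 ± 0.60 in hMYC-ER (SD, n = 6), against 7.94 ± 0.44 in hlk (SD, n = 3) (1.55, limma adjusted p 0.0216). Each of the 4 calls ended without some single array. The hmgb1a call ended without array 2, 4, 5, 7 or 8, with -0.48 and a limma adjusted p of 0.0785 without array 7. The hmgb1b call ended without array 7 (-0.61, limma adjusted p 0.0566) or 9 (-0.75, limma adjusted p 0.0615). The parp3 call ended without array 8 (1.61, limma adjusted p 0.0534) or 9 (1.30, limma adjusted p 0.0816), and the tdp2b call without array 9 (-0.70, limma adjusted p 0.0539).

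Lists of break sensing and of other repair routes are given beside the 21.1% of all genes called. Of 13 measured genes of break sensing and signalling, limma called 0 higher in hMYC-ER and 1 lower there, and 12 were not called. At an unadjusted p under 0.05 the 2 counts were 1 and 3, and the share of all genes at that threshold is not given here. The called gene was rnf8, for a ubiquitin ligase at breaks, at 8.96 ± 0.05 in hMYC-ER (SD, n = 6), against 9.47 ± 0.08 in hlk (SD, n = 3) (-0.50, limma adjusted p 0.00236). With a floor of 1 that call ended (limma adjusted p 0.0600). The list median was -0.29, beside -0.08 over all genes. Of 17 measured genes of homologous recombination and alternative end joining, 1 was called in each direction and 15 were not called, with a median of -0.37. The ligase gene lig3, which acts in alternative end joining, was lower in hMYC-ER, at 8.15 ± 0.14 (SD, n = 6) against 8.95 ± 0.17 (SD, n = 3) in hlk (-0.80, limma adjusted p 0.00216). The BRCA2 partner gene palb2 was higher in hMYC-ER by 0.97 (limma adjusted p 0.0239), a call that ended without array 7 (0.90, limma adjusted p 0.0713) or 8 (0.80, limma adjusted p 0.0842).

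Transcription factors that control the rag genes in mouse went both ways, with differences from -4.69 for gata3 to 6.78 for pax5. Of 27 listed genes 15 were measured, of which 5 were called higher in hMYC-ER, 4 were called lower there and 6 were not called, with a median of -0.27. Over all genes 21.1% were called and the median was -0.08. The B lineage factor gene pax5 stood at 11.09 ± 0.15 in hMYC-ER (SD, n = 6), against 4.31 ± 0.53 in hlk (SD, n = 3) (6.78, limma adjusted p 1.3e-06), with a second probe set at 0.15 that was not called. The myeloid and B cell factor gene spi1b was higher in hMYC-ER by 5.29. The lymphoid factor genes ets1 (-4.28) and runx3 (-3.51) were called lower in hMYC-ER. Limma adjusted p was 1.3e-05 for spi1b, 8.7e-05 for ets1 and 3.4e-04 for runx3, and a second ets1 probe set was not called (-2.08, limma adjusted p 0.0765). The other called genes were the E protein gene tcf12 (2.18, limma adjusted p 0.00781, with all 4 of its probe sets called higher in hMYC-ER), the forkhead gene foxp1a (1.55, limma adjusted p 9.2e-04), gata3 and a pair of E protein inhibitor genes. Of these inhibitors, id3 was called higher in hMYC-ER (2.82, limma adjusted p 0.0302) and id2a lower (-1.78, limma adjusted p 0.00422). The id3 call ended without array 2, 3, 4, 5, 8 or 9, with a limma adjusted p of up to 0.109 (2.37) without array 9. These lists were chosen with earlier results of these arrays known, and a direction in them is not independent of those results.

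**Figure D4:**
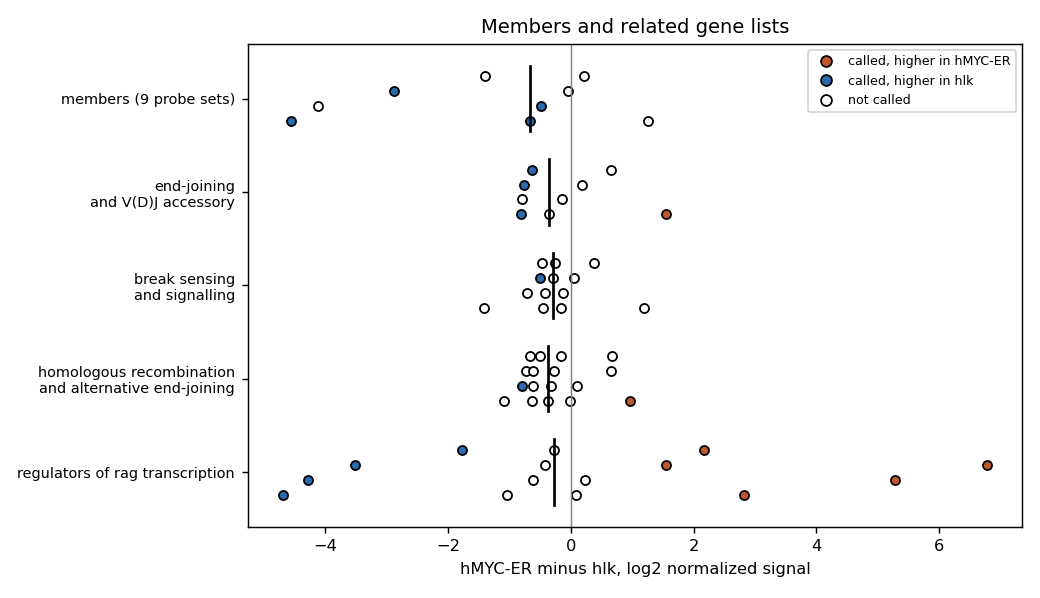
Difference between the models, hMYC-ER minus hlk, in log2 normalized signal for the 9 member probe sets and for each measured gene of 4 related lists (1 point per gene, spread vertically for visibility only). Orange points were called higher in hMYC-ER, blue points were called higher in hlk, open points were not called, and vertical bars are list medians, at -0.66 for the members and between -0.37 and -0.27 for the lists.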

How the data were processed

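The values deposited by the authors are linear, scaled intensities, 1 for each of the 9 arrays in every probe set. The authors' scaling shows in the fact that the mean after trimming 2% at each end was 500.1 or 500.2 on each. The labels' protocols give Trizol extraction and Affymetrix biotinylated cRNA from 100 ng of total RNA, while the signal algorithm is not stated there. Of 15617 probe sets, 115 controls were left out. Array medians differed by 0.30 on the log2 scale, so arrays were quantile normalized, floored at 16 and put on the log2 scale. The median deposited signal per array was 88.9 to 110.3, and 18.8% of normalized signals lay below the floor on every array. Of the probe sets tested, the platform annotation names 10795 with a single gene, 135 with several and 4572 with none. The Entrez identifier found all 9 member probe sets in the gene table. Apart from that gene table (GRCz12tu), no genome build is named, and no sequences were used.

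The models were compared with limma 3.58.1 in R 4.3.3 (lmFit and eBayes, no covariate), adjusting p by Benjamini-Hochberg across the 15502 probe sets. The fit was tested on simulated data with normal noise, the same SD in both models and no floor. That test does not cover an uneven spread such as that of rag1 (SD 1.01 in hMYC-ER and 3.22 in hlk). The brightest probe set by mean over 9 arrays stood for a gene in lists and distances. All probe sets of members were named, the 5 nearest genes to each member with a range of at least 2, and of each list up to 4 called genes with the smallest p. Alternatives were other normalizations, floors of 1 and 64, a filter on dim probe sets, array weights, a trend with robust prior, gene-level tests, dropping each array and an exact permutation test. Leaving out arrays 1 and 7 together was added after seeing the data. The members and lists were chosen with earlier results of these data known. tcf12, foxp1a, id2a, id3, krt5 and, outside the marker list, gata3 were named after their values were seen. The genes hmgb2a, hmgb2b and nhej1, which were not called, were also named outside the rule of up to 4 called genes. Plots were made in matplotlib 3.10.9 (Python 3.11.15).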

Additional observations from a re-analysis of the deposited data

Results flagged for a closer look

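In hMYC-ER, just under 88 probe sets of members, list genes and nearest genes were searched for 1 array far from the other 5. The search found 4. Chance gives about 1 in 20, a rate that does not hold for genes chosen by their profile or with values at the floor. None was a member. The rag2-like genes nup210 (5.80 on array 1, others 8.20 to 8.81) and dync1li1 (5.14 on array 1, others 6.93 to 7.65) were low on the array where rag2 was also lowest. Both were chosen for their likeness to rag2, so these low values follow from the choice. The T lineage factor gene gata3 was at the floor of 4.00 on array 6 (others 5.48 to 6.22). The rag1-like gene mhc2daa was at 4.63 on array 4 (others 4.00 to 4.06). With 4 of its hMYC-ER values at the floor, the search says little about this gene.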

How the results depend on the processing

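The calls of dclre1c (-3.33 to -2.49) and polm (-5.14 to -3.54) held in all 18 alternative limma fits. Those of the brighter poll probe set held in 16 of 18 and those of xrcc6 in 9 of 18, and rag1, not called here, was called in 6 of 18 (-5.96 to -3.01). The sign turned for 3 genes that were never called. The rag2 difference ran from -0.50 (without array 7) to 2.45 over single arrays left out. The xrcc5 difference ran from -0.017 (without array 8) to 0.36. For prkdc the range was -0.13 to 0.077, positive without array 1 (0.027) or 9, and the value was 0.038 with signals as deposited. The number of member probe sets higher in hlk was 2 with a floor of 1 and 3 to 5 when single arrays were left out.

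Array weights left 0 accessory genes higher in hMYC-ER and 1 lower there, and 0 homologous recombination genes higher there. With a floor of 1, break signalling had 0 genes higher in hlk. With the dimmest 1 in 3 left out, and also with a trend and robust prior, it had 1 gene higher in hMYC-ER and 2 lower there. Without arrays 1 and 7 the accessory list had 0 and 1. Leaving out single arrays gave 0 to 1 and 1 to 3 genes in the accessory list, 1 to 2 higher in hlk in break signalling, and 0 to 1 and 1 to 2 in homologous recombination. The rag1 to rag2 difference ran from -5.82 to -4.82 over single arrays left out (exact permutation p 0.0357 to 0.0714) and was -5.89 without arrays 1 and 7 (p 0.0952), with each p the smallest its design allows. The cause of the other changes was not tested. Replicate numbers are not shared between the models and give no pairs, so no paired analysis was run. The 3 hlk arrays, 1 with a gapdhs ratio of 50.8, limit the precision, and signals at the floor have no order.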
